A study of Homo sapiens with 9 samples.

Results

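Collagens are the trimeric proteins that give the extracellular matrix its strength, and the collagen gene family codes for their chains. Its members were taken as every gene whose platform symbol has the form COL, a number, A and a number, which gave 41 of the 17687 genes measured, each with 1 transcript cluster, on 17 chromosomes. The cells were HepG2, an established line from a human liver tumour that keeps many hepatocyte features. There were 3 groups of 3 arrays, from cultures with no addition (untreated), with 200 ng/ml and with 800 ng/ml of recombinant SPARC, all taken 24 h later. SPARC is a secreted glycoprotein that binds collagen fibrils and basement membrane collagen, so the question here is whether adding it was followed by a change in the transcripts of the collagens themselves. No label tells whether replicates came from separate cultures, and the p-values therefore rest on a spread that may be only technical. All values come from 1 line, and the labels' protocol for RNA names the 800 ng/ml dose alone while the sample labels give both doses.

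Each collagen is built from 3 chains wound into a triple helix, and the classes differ in what the helices assemble into. Fibrillar collagens form the cables of skin, tendon, bone and cartilage, type IV collagens form the sheet of the basement membrane, and fibril-associated collagens sit on the surface of the cables. In liver the fibrillar collagens come mainly from stellate cells and fibroblasts, whereas COL18A1, the precursor of endostatin, is also made by hepatocytes. The 41 genes comprised 10 fibrillar, 6 type IV, 3 short-chain network, 5 beaded filament (type VI), 10 fibril-associated, 3 transmembrane and 2 multiplexin genes and 2 others. A further 3 collagen genes, COL3A1 (fibrillar), COL7A1 (anchoring fibril) and COL17A1 (transmembrane), were not analysed here.

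The 6 type IV genes lie in 3 head-to-head pairs, in which both partners are read outward from a shared stretch. These stretches are shown because the signals of the partners are set side by side below. Each is the sequence between the RefSeq start sites of the partners that lies within 250 bases before both of them (build GRCh38.p14), 5′ to 3′ on the plus strand. Capitals mark matches on either strand to the GC box motif, spelled GGGCGG, or to the CCAAT box. These matches do not overlap each other here.
COL4A1 and COL4A2, chr13:110307158-110307283: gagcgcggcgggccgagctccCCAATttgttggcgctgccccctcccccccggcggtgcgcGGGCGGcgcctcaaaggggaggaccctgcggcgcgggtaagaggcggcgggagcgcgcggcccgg
COL4A3 and COL4A4, chr2:227164374-227164455: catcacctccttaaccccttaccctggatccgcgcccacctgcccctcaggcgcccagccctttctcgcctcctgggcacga
COL4A5 and COL4A6, chrX:108439588-108439708: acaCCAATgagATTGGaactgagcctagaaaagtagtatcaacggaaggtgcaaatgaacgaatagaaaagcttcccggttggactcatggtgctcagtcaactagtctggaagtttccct

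The COL4A1 and COL4A2 stretch is 126 bases long, with 80.2% G and C and start sites 127 bases apart. The COL4A3 and COL4A4 stretch has 82 bases and 67.1% G and C, with start sites 419 bases apart and no match to either motif. The COL4A5 and COL4A6 stretch has 121 bases and 44.6% G and C, with start sites 380 bases apart and 2 CCAAT matches facing opposite ways. No stretch held TATAAA. Over all 35116 promoter windows in the table, each of 300 bases from 250 before to 50 after a start site, 45.0% held GGGCGG, 34.6% CCAAT and 11.5% TATAAA on either strand, and the median G and C content was 58.7%. The 42 windows of the 30 collagen genes found in the table held them in 54.8%, 31.0% and 14.3%. A match is a description of letters and shows no binding.

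The arrays were of similar overall level, with medians between 5.41 and 5.55 on the log2 scale. Untreated replicate 2 stood apart: across clusters it correlated with the others at 0.891 to 0.920, whereas the other 8 arrays correlated at 0.979 to 0.991. It is 1 of the 3 arrays behind both comparisons with untreated cells, so the main results are given with and without it. All genes were split into 4 equal bins by mean signal. The median difference of this array from the mean of untreated replicates 1 and 3 was 0.35 in the dimmest bin, 0.56 in the second, −0.50 in the third and −0.80 in the brightest. The table holds no detection calls, so a low value is a low signal and not an absence, and values of different genes are not set against each other because each has its own probes.

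Untreated replicate 2 was the highest array more often for collagens than for other genes. It was the highest of the 9 for 25 collagens (61.0%), against 32.5% of all genes, and the lowest for 5 (12.2%), against 41.7%. The median deviation from untreated replicates 1 and 3 was 0.75 for collagens and −0.09 for all genes. The contrast with other genes was widest for the 9 collagens in the third bin, with a median of 1.004 in that array, where all genes of that bin were at −0.50. The 16 collagens of the second bin were at 0.93 against 0.56 for all genes, and the 13 of the dimmest bin at 0.23 against 0.35. The 3 in the brightest bin, COL27A1, COL9A3 and COL18A1, were at −0.96, close to the −0.80 of all genes there. No test was made of these shares, since they describe 1 array.

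**Figure D1:**
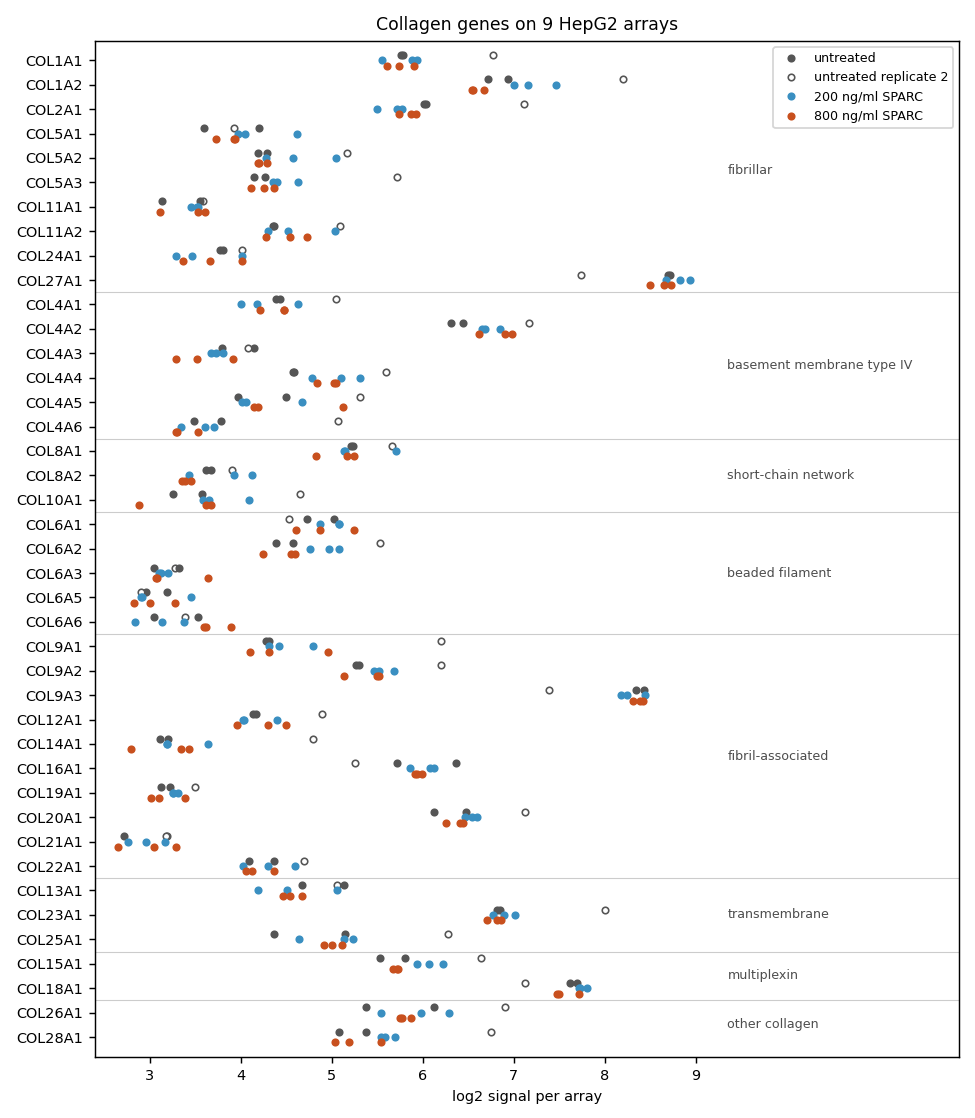
Log2 signal (horizontal axis) of the 41 collagen genes by structural class, 1 point per array: untreated (grey, replicate 2 as an open circle), 200 ng/ml SPARC (blue) and 800 ng/ml SPARC (orange). The open circles lie far to the right for most genes and to the left for COL27A1, COL9A3, COL16A1 and COL18A1, while the other 8 arrays mostly overlap.

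Many markers of fibroblasts and blood cells were also highest in this array. Set against the average of the 8 remaining arrays, the median over 9 fibroblast and stellate cell markers was 0.77 in untreated replicate 2 and between −0.09 and 0.03 elsewhere. The median over the 41 collagens was 0.70 in that array and between −0.11 and 0.15 elsewhere. For 10 endothelial and 9 blood and Kupffer cell markers the array stood at 0.54 and 1.11, and for 8 hepatocyte markers at −0.19. On the same measure all genes stood at 0.325, 0.517, −0.465 and −0.766 from the dimmest bin to the brightest. All 8 hepatocyte markers were in the brightest bin, and most fibroblast, endothelial and blood cell markers in the dimmest and second bins. The markers of the fibroblast and blood lists that fell in the brightest bin, named after their values were seen, were lowest in this array. ACTA2 read 7.35, against 8.02 to 8.36 on the other arrays, CD68 read 7.15 against 7.86 to 8.13, and LYZ 11.37 against 11.52 to 11.70. Of the 3 endothelial markers in the third bin, 2 were highest in this array and 0 lowest. VWF read 7.23 against 5.43 to 5.96, and CLEC4G 7.075 against 4.71 to 5.75. The array was the highest of the 9 for 6 of 9 fibroblast and stellate cell, 5 of 10 endothelial and 6 of 9 blood and Kupffer cell markers. It was the lowest for 1, 0 and 2 of them in that order. At 800 ng/ml 7 of 9 fibroblast and stellate cell markers were lower than in untreated cells with all arrays, and 4 of 9 without untreated replicate 2. Among the 8 hepatocyte markers, untreated replicate 2 was the lowest of the 9 arrays for 5 and the highest for 1. AFP read 8.16 there against 8.93 to 9.19 elsewhere, and TTR, the highest, 8.11 against 7.57 to 7.77. ALB, the main secreted protein of hepatocytes, was also lowest in that array but lay between 12.14 and 12.46 on all 9 arrays. The part of other cells, RNA quality or the array itself in these signals was not tested, and more cells of a type cannot be told from more RNA per cell in bulk samples.

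**Figure D2:**
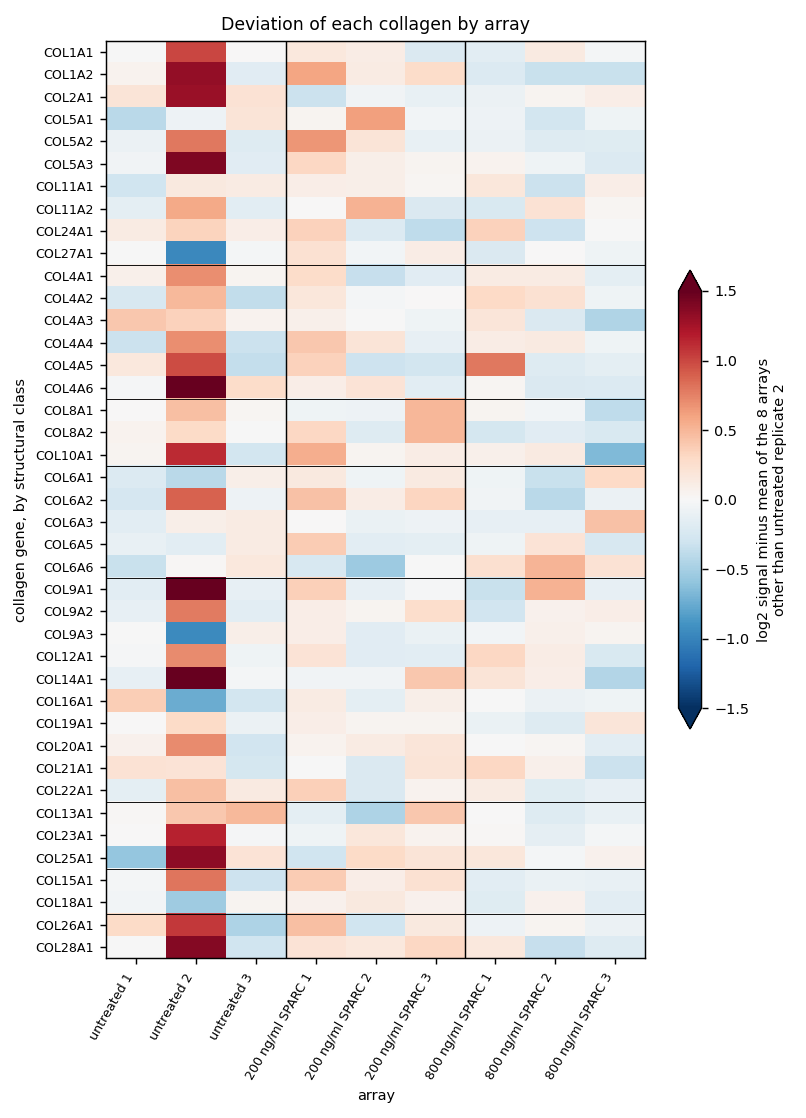
Deviation of each collagen gene (rows, by class) on each array (columns) from its mean over the 8 arrays other than untreated replicate 2, in log2 units, with the colour scale ending at 1.5 either way. The column of untreated replicate 2 is strongly coloured for most genes, whereas the other columns are pale, with family medians between −0.11 and 0.15.

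With all 9 arrays, no collagen gene and no other gene passed the test in any of the 3 comparisons. The smallest Benjamini-Hochberg adjusted p from limma was 0.659 for 800 ng/ml against untreated, 0.966 for 200 ng/ml against untreated and 0.999 for 800 against 200 ng/ml, so 0% of genes were called each time. At an unadjusted p under 0.05 there were 0 of 41 collagens for 800 ng/ml against untreated (4.17% of all genes). There was 1 for 200 ng/ml against untreated, COL2A1 (1.78% of all genes), and 1 for 800 against 200 ng/ml, COL6A6 (2.41% of all genes). The 95% interval of a collagen's difference reached a median of 0.57 log2 units either way, a 1.48-fold change, before any adjustment for the number of genes. Larger differences than that did not pass the adjusted threshold either.

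The direction of the differences depended on untreated replicate 2. With all arrays 10 collagens were higher and 31 lower at 800 ng/ml than in untreated cells, with a median log2 difference of −0.21 against 0.04 over all genes. At 200 ng/ml 15 were higher and 26 lower, with a median of −0.06 against 0.03. Without that array the split at 800 ng/ml was 19 higher and 22 lower, with a median of −0.01 for collagens and −0.01 for all genes. At 200 ng/ml it turned to 31 higher and 10 lower, with a median of 0.11 for collagens and −0.02 for all genes. The 200 ng/ml split also moved when only 200 ng/ml replicate 2 was left out. It was then 21 higher and 20 lower, with a median of 0.002 for collagens and 0.04 for all genes. Both comparisons share the untreated arrays. Between the doses, where the untreated arrays enter only through the spread, 11 collagens were higher and 30 lower at 800 than at 200 ng/ml in both fits, with a median of −0.10 against 0.01 over all genes.

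**Figure D3:**
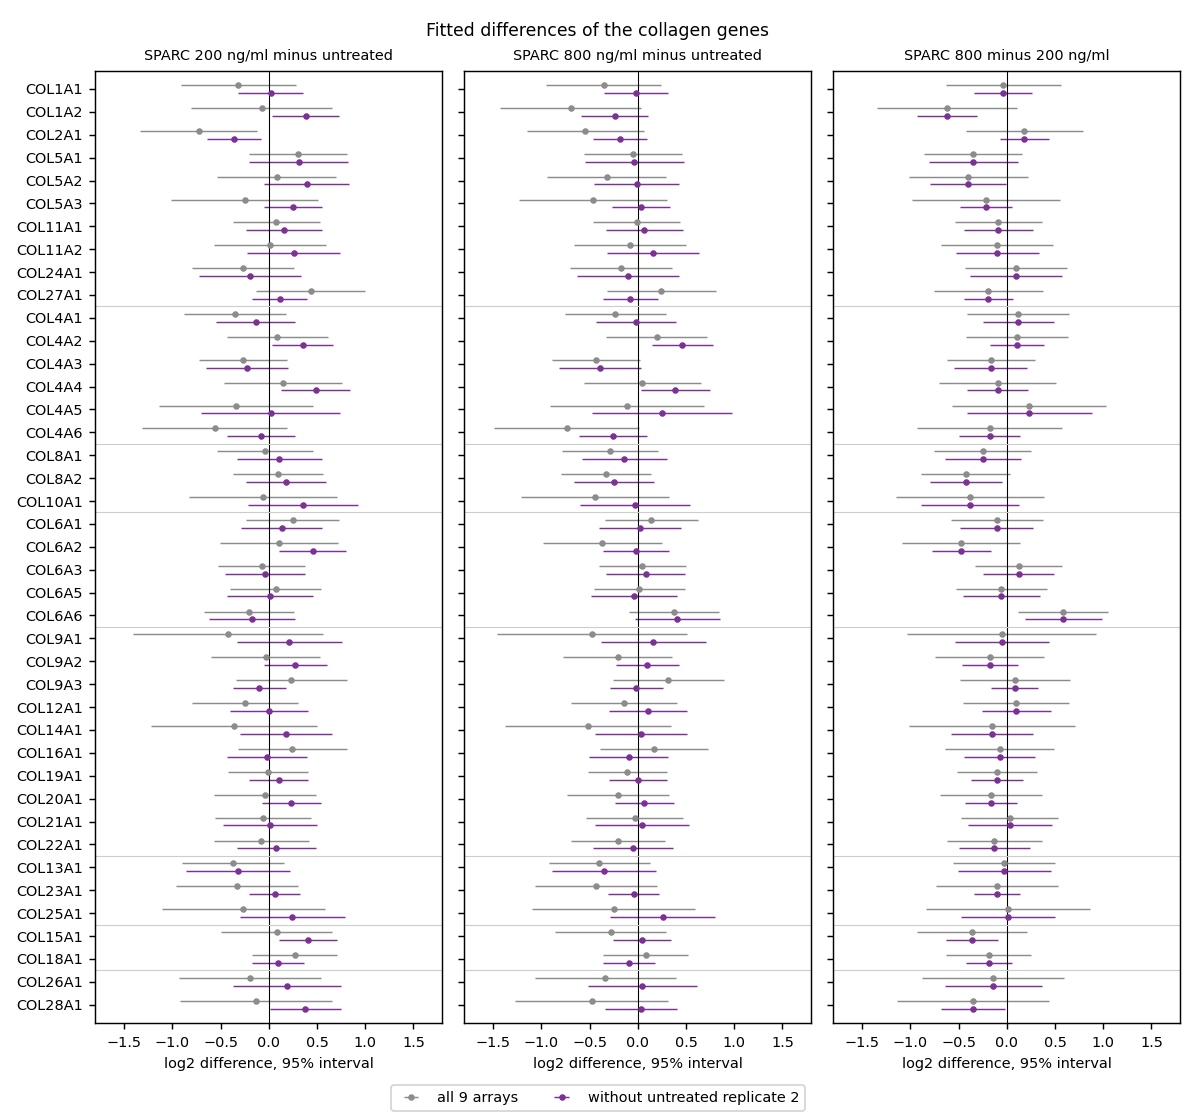
Fitted log2 difference (points) with its 95% interval (lines) for each collagen gene, for 200 ng/ml minus untreated, 800 ng/ml minus untreated and 800 minus 200 ng/ml, with all 9 arrays (grey) and without untreated replicate 2 (purple). Most intervals cover 0 in both fits, the purple points of the first panel lie mostly to the right of the grey ones, and in the third panel both fits have the same points with shorter purple intervals.

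Among fibrillar collagens, COL1A2 showed the clearest separation between the doses. COL1A2 codes for the second chain of type I collagen, the main collagen of scar and bone. Its log2 signal was 6.94, 8.20 and 6.71 on the untreated arrays, 7.47, 6.998 and 7.16 at 200 ng/ml and 6.67, 6.55 and 6.54 at 800 ng/ml. The 800 ng/ml arrays all lay below the 200 ng/ml arrays and below the untreated arrays, whereas the 200 ng/ml and untreated arrays overlapped. The difference of 800 from 200 ng/ml was −0.62 ± 0.33 (SE; limma, adjusted p = 0.999) with all arrays. Without untreated replicate 2 it was −0.62 ± 0.14, with an interval of −0.93 to −0.31, and it did not pass either (limma, adjusted p = 0.185). Against untreated cells the difference at 800 ng/ml was −0.70 ± 0.33 with all arrays and −0.24 ± 0.16 without untreated replicate 2.

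COL1A1, the partner chain of COL1A2 in type I collagen, showed no such separation. Over the 8 arrays other than untreated replicate 2, COL1A1 lay between 5.55 and 5.93, and that array read 6.78. Its difference between 800 and 200 ng/ml was −0.04 ± 0.27, with an interval of −0.63 to 0.56, and −0.04 ± 0.13 without untreated replicate 2. Whether the 2 chains differed in their change was not tested.

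COL2A1, the main collagen of cartilage, had lower signals on the arrays of both doses than on the untreated arrays, without passing the test. Its log2 signal was 6.01, 7.11 and 6.04 on the untreated arrays, 5.499, 5.77 and 5.71 at 200 ng/ml and 5.74, 5.87 and 5.92 at 800 ng/ml. Every treated array lay below every untreated one. The difference at 200 ng/ml was −0.73 ± 0.28 (limma, adjusted p = 0.966) and −0.36 ± 0.13 without untreated replicate 2 (limma, adjusted p = 0.357). At 800 ng/ml it was −0.55 ± 0.28 and −0.18 ± 0.13 in the same 2 fits. In untreated replicate 2 COL2A1 read 1.09 above the mean of untreated replicates 1 and 3.

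The other fibrillar collagens overlapped between groups in most comparisons. COL5A1, a chain of the type V collagen that sets fibril diameter, had 3.598, 3.92 and 4.20 in untreated cells, 4.05, 4.61 and 3.96 at 200 ng/ml and 3.92, 3.72 and 3.94 at 800 ng/ml. Its 800 ng/ml arrays lay just below the 200 ng/ml arrays, with a difference of −0.35 ± 0.23, and overlapped with untreated cells. COL27A1, a minor fibrillar collagen of cartilage, had 8.72, 7.74 and 8.69 in untreated cells, 8.94, 8.68 and 8.83 at 200 ng/ml and 8.50, 8.72 and 8.65 at 800 ng/ml. The difference of COL27A1 at 200 ng/ml was 0.43 ± 0.26 with all arrays and 0.11 ± 0.13 without untreated replicate 2, the array in which it was low. COL5A2, COL5A3, COL11A1, COL11A2 and COL24A1 lay between 3.11 and 5.04 over the 8 other arrays, and COL5A3 reached 5.72 in untreated replicate 2.

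**Figure D4:**
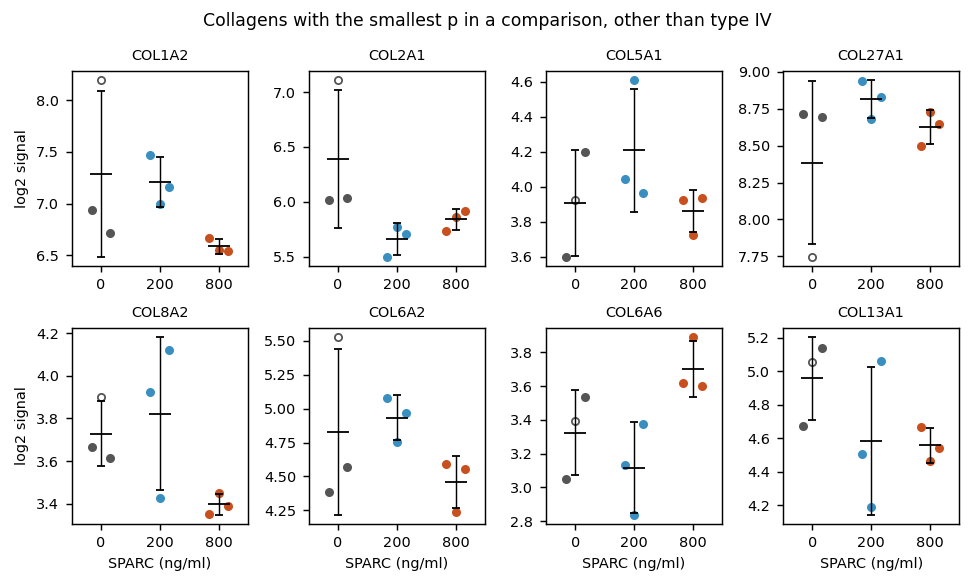
Log2 signal per array (vertical axes, scaled for each gene) at 0, 200 and 800 ng/ml SPARC for 8 collagens outside type IV, with the mean and SD of the 3 arrays of a group as lines and bars and untreated replicate 2 as an open circle. COL1A2 and COL8A2 have tight groups at 800 ng/ml below the untreated points, and COL6A6 is the gene whose 800 ng/ml points are all above the others.

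Of the type IV pairs, COL4A2 and COL4A4 had higher signals on treated arrays than on untreated replicates 1 and 3, and their partners did not, though no gene passed the test. COL4A2, a chain of the network found in nearly all basement membranes, had 6.44, 7.17 and 6.31 in untreated cells, 6.85, 6.65 and 6.68 at 200 ng/ml and 6.98, 6.90 and 6.62 at 800 ng/ml. All 6 treated arrays lay above untreated replicates 1 and 3 and below replicate 2. The difference of COL4A2 at 800 ng/ml was 0.19 ± 0.24 with all arrays and 0.46 ± 0.14 without untreated replicate 2 (interval 0.14 to 0.78, limma, adjusted p = 0.894).

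COL4A1, which is read the other way from the GC-rich stretch shown above and joins COL4A2 in the protein, had 4.43, 5.05 and 4.38 in untreated cells, 4.62, 4.004 and 4.18 at 200 ng/ml and 4.48, 4.48 and 4.21 at 800 ng/ml. Its groups overlapped. Without untreated replicate 2 the difference at 800 ng/ml was −0.02 ± 0.18, with an interval of −0.43 to 0.39 that overlaps that of COL4A2, and the difference between the partners was not tested.

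COL4A3 and COL4A4 code for chains of the network of the kidney filter. COL4A4 had 4.58, 5.60 and 4.58 in untreated cells, 5.30, 5.10 and 4.78 at 200 ng/ml and 5.02, 5.04 and 4.84 at 800 ng/ml, so again the treated arrays lay between untreated replicate 2 and the other untreated arrays. Without that array the difference was 0.48 ± 0.16 at 200 ng/ml and 0.39 ± 0.16 at 800 ng/ml (limma, adjusted p = 0.346 and adjusted p = 0.912). COL4A3 had 4.14, 4.08 and 3.79 in untreated cells, 3.81, 3.73 and 3.67 at 200 ng/ml and 3.91, 3.52 and 3.28 at 800 ng/ml. This gene was hardly raised in untreated replicate 2, and its difference at 800 ng/ml was −0.43 ± 0.21 with all arrays and −0.39 ± 0.19 without that one, with overlapping groups.

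On the X-linked pair the arrays scattered widely for COL4A5, and for COL4A6 mainly through untreated replicate 2. COL4A5 had 4.49, 5.31 and 3.97 in untreated cells, 4.67, 4.02 and 4.06 at 200 ng/ml and 5.12, 4.14 and 4.18 at 800 ng/ml, with overlap throughout. COL4A6, whose chain joins that of COL4A5 in smooth muscle basement membranes, had 3.48, 5.07 and 3.78 in untreated cells, 3.601, 3.70 and 3.34 at 200 ng/ml and 3.53, 3.29 and 3.30 at 800 ng/ml. The difference of COL4A6 at 800 ng/ml was −0.74 ± 0.34 with all arrays, the smallest p of the family in that comparison (limma, adjusted p = 0.659). It was −0.26 ± 0.16 without untreated replicate 2, in which COL4A6 read 1.44 above the mean of untreated replicates 1 and 3.

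**Figure D5:**
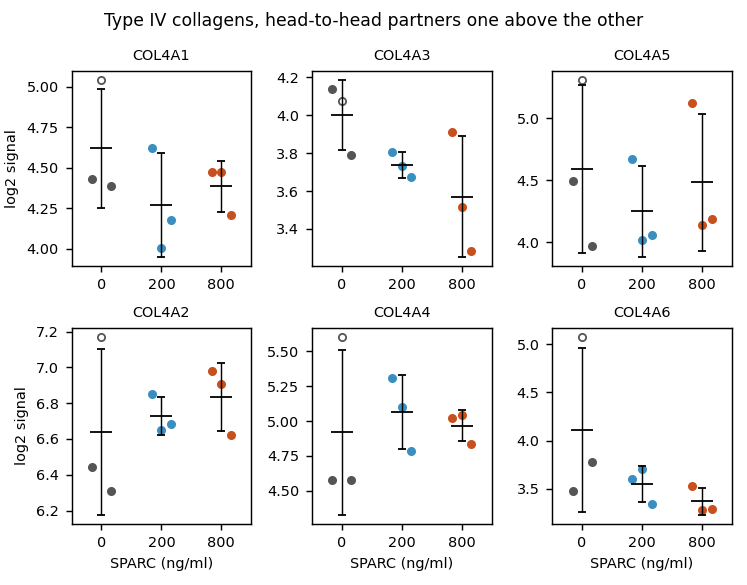
Log2 signal per array (vertical axes, scaled for each gene) of the 6 type IV collagens at 0, 200 and 800 ng/ml SPARC, with head-to-head partners in 1 column, lines and bars for the mean and SD of 3 arrays, and untreated replicate 2 as an open circle. The treated points of COL4A2 and COL4A4 lie above the filled untreated points, which those of COL4A1 and COL4A3 do not.

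Type VI collagen, which forms beaded filaments around cells, gave the only collagen whose 800 ng/ml arrays all lay above the untreated arrays, or above the 200 ng/ml arrays, with all 9 arrays considered. COL6A6, a chain that resembles COL6A3, had 3.05, 3.39 and 3.53 in untreated cells, 3.13, 2.84 and 3.38 at 200 ng/ml and 3.62, 3.89 and 3.598 at 800 ng/ml. The 3 arrays at 800 ng/ml lay above the other 6, though by little over the nearest untreated array. The difference was 0.59 ± 0.21 from 200 ng/ml (interval 0.12 to 1.05, limma, adjusted p = 0.999) and 0.38 ± 0.21 from untreated cells. COL6A6 was hardly affected by untreated replicate 2, without which the values were 0.59 ± 0.18 and 0.41 ± 0.20.

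COL6A2 had lower signals at 800 than at 200 ng/ml. Its log2 signal was 4.39, 5.53 and 4.57 in untreated cells, 5.08, 4.76 and 4.97 at 200 ng/ml and 4.59, 4.24 and 4.55 at 800 ng/ml. The 800 ng/ml arrays lay below the 200 ng/ml arrays, with a difference of −0.47 ± 0.28, or ± 0.14 without untreated replicate 2 (limma, adjusted p = 0.999 and adjusted p = 0.212). COL6A1, which joins COL6A2 in the filament, had 4.73, 4.53 and 5.03 in untreated cells, 5.08, 4.87 and 5.07 at 200 ng/ml and 4.87, 4.60 and 5.24 at 800 ng/ml, with overlap throughout. COL6A3 and COL6A5 lay between 2.82 and 3.64 on all 9 arrays.

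The short-chain collagens form hexagonal lattices. COL8A2, a chain of the corneal Descemet membrane, had 3.67, 3.90 and 3.61 in untreated cells, 3.92, 3.43 and 4.12 at 200 ng/ml and 3.35, 3.45 and 3.39 at 800 ng/ml. The 800 ng/ml arrays lay below all untreated ones, with a difference of −0.33 ± 0.21, or −0.24 ± 0.18 without untreated replicate 2. The difference from 200 ng/ml was −0.43 ± 0.21 with overlap. COL8A1 had 5.21, 5.66 and 5.23 in untreated cells, 5.15, 5.14 and 5.70 at 200 ng/ml and 5.24, 5.17 and 4.83 at 800 ng/ml. COL10A1, the collagen of hypertrophic cartilage, had 3.58, 4.66 and 3.26, then 4.08, 3.58 and 3.65, then 3.61, 3.67 and 2.88 in the same order of doses. Groups overlapped for COL8A1 and COL10A1.

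Fibril-associated collagens differed in their spread over the 8 arrays other than untreated replicate 2, with ranges between 0.26 for COL9A3 and 0.86 for COL9A1. COL9A3, a chain of the type IX collagen that decorates cartilage fibrils, had 8.34, 7.39 and 8.44 in untreated cells, 8.44, 8.18 and 8.25 at 200 ng/ml and 8.31, 8.42 and 8.39 at 800 ng/ml. The range of COL9A3 was the smallest of the family, and its difference at 800 ng/ml without untreated replicate 2 was −0.02 ± 0.12. COL9A1 and COL9A2, its partner chains, read 6.197 and 6.203 in untreated replicate 2, above their ranges of 4.10 to 4.95 and 5.14 to 5.68 on the other arrays. The 3 chains of 1 protein thus lay on opposite sides of the other arrays there.

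COL20A1 had 6.48, 7.13 and 6.13 in untreated cells, 6.47, 6.54 and 6.60 at 200 ng/ml and 6.40, 6.45 and 6.26 at 800 ng/ml, and its 800 ng/ml arrays lay narrowly below those at 200 ng/ml. COL16A1 had 6.37, 5.25 and 5.72 in untreated cells, 6.13, 5.85 and 6.08 at 200 ng/ml and 5.99, 5.91 and 5.93 at 800 ng/ml. For COL16A1 the untreated arrays spanned both treated groups. COL12A1, COL14A1, COL19A1, COL21A1 and COL22A1 lay between 2.65 and 4.60 over the 8 other arrays, and COL14A1, which binds the surface of type I fibrils, read 4.79 in untreated replicate 2.

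Transmembrane collagens stay anchored in the cell surface. COL13A1, which acts at the neuromuscular junction, had 4.68, 5.06 and 5.14 in untreated cells, 4.51, 4.19 and 5.06 at 200 ng/ml and 4.67, 4.46 and 4.54 at 800 ng/ml. The 800 ng/ml arrays lay narrowly below the untreated ones, with a difference of −0.40 ± 0.24, or −0.35 ± 0.24 without untreated replicate 2. COL23A1 had 6.85, 8.002 and 6.82 in untreated cells, 6.78, 7.02 and 6.89 at 200 ng/ml and 6.86, 6.71 and 6.81 at 800 ng/ml. COL25A1, a collagen of neurons found in amyloid plaques, had 4.36, 6.28 and 5.15, then 4.64, 5.23 and 5.13, then 5.11, 4.92 and 5.01 in the same order of doses. Both overlapped between groups.

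The multiplexins COL15A1 and COL18A1, proteoglycan collagens of the basement membrane zone, were both lower at 800 than at 200 ng/ml without overlap. COL15A1 had 5.80, 6.64 and 5.53 in untreated cells, 6.22, 5.93 and 6.06 at 200 ng/ml and 5.68, 5.73 and 5.72 at 800 ng/ml. Its difference between the doses was −0.36 ± 0.26, or ± 0.12 without untreated replicate 2, and in that fit 200 ng/ml was above untreated cells by 0.41 ± 0.13 (limma, adjusted p = 0.235 and adjusted p = 0.345). COL18A1 had 7.62, 7.12 and 7.70 in untreated cells, 7.72, 7.81 and 7.73 at 200 ng/ml and 7.48, 7.72 and 7.497 at 800 ng/ml. The highest 800 ng/ml array and the lowest 200 ng/ml array of COL18A1 were equal to 2 decimals, and the difference was −0.19 ± 0.20.

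COL26A1 and COL28A1 fall in none of these classes. COL28A1, known in mouse as a collagen of peripheral nerve, had 5.37, 6.76 and 5.08 in untreated cells, 5.58, 5.54 and 5.69 at 200 ng/ml and 5.54, 5.04 and 5.19 at 800 ng/ml. The 2 treated groups of COL28A1 did not overlap, with a difference of −0.35 ± 0.36, or ± 0.15 without untreated replicate 2. COL26A1 had 6.13, 6.90 and 5.38 in untreated cells, 6.29, 5.54 and 5.98 at 200 ng/ml and 5.77, 5.88 and 5.75 at 800 ng/ml, with overlap throughout.

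Counts of collagens whose groups did not overlap were read against the same counts over all genes. At 800 ng/ml against untreated 1 collagen was higher, COL6A6 (6.08% of all genes), and 4 were lower, COL1A2, COL2A1, COL8A2 and COL13A1 (9.76% of collagens, 5.14% of all genes). At 200 ng/ml against untreated COL18A1 alone was higher (3.92% of all genes) and COL2A1 alone lower (3.06% of all genes). Between 800 and 200 ng/ml COL6A6 alone was higher (12.1% of all genes), and 7 were lower, COL1A2, COL5A1, COL6A2, COL15A1, COL18A1, COL20A1 and COL28A1 (17.1% of collagens, 9.72% of all genes). The shares are descriptions, and no test was made of a difference between collagens and other genes.

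Without untreated replicate 2 limma still called 0% of genes, with smallest adjusted p values over all genes of 0.861 at 800 ng/ml, 0.309 at 200 ng/ml and 0.154 between the doses. At 800 ng/ml COL4A2 and COL4A4 were higher at an unadjusted p under 0.05 (2.53% of all genes were) and 0 collagens lower (2.83%). Arrays did not overlap for COL4A2, COL4A4 and COL6A6 on the higher side (10.5% of all genes) and for COL1A2, COL2A1, COL8A2 and COL13A1 on the lower side (11.8%). At 200 ng/ml 6 collagens, COL1A2, COL4A2, COL4A4, COL6A2, COL15A1 and COL28A1, were higher at an unadjusted p under 0.05 (5.29% of all genes) and COL2A1 was lower (6.03%). Arrays did not overlap for 11 collagens on the higher side (26.8%, against 13.8% of all genes), namely those 6 and COL5A3, COL9A2, COL10A1, COL18A1 and COL19A1, and for COL2A1 alone on the lower side (17.8% of all genes). At an unadjusted p under 0.05, 6 collagens were lower at 800 than at 200 ng/ml (7.58% of all genes). They were COL1A2, COL5A2, COL6A2, COL8A2, COL15A1 and COL28A1, and by the same rule COL6A6 was higher (7.68% of all genes). The other 200 ng/ml arrays were not left out together with untreated replicate 2, so a part of replicate 1 cannot be told from having fewer arrays. That replicate was left out as well in a setting chosen after seeing the data. There 3 collagens, COL4A4, COL6A2 and COL15A1, were higher at 200 ng/ml than in untreated cells at an unadjusted p under 0.05 (4.53% of all genes). In the same fit and by the same rule 3, COL1A2, COL6A2 and COL15A1, were lower at 800 than at 200 ng/ml (6.25% of all genes). Counted by sign alone, the split between the doses was 16 higher and 25 lower.

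Without untreated replicate 2 alone, the order of group means was uneven across the doses. The 200 ng/ml mean was the highest of the 3 for 26 collagens (63.4%), against 34.9% of all genes, and the 800 ng/ml mean was the lowest for 18 (43.9%), against 31.1%. The 200 ng/ml arrays were not alike in this, since the median over the collagens relative to the mean of the 8 arrays was 0.15 in replicate 1, −0.03 in replicate 2 and 0.05 in replicate 3. At 800 ng/ml the medians were −0.003, −0.04 and −0.11, and in untreated replicates 1 and 3 they were −0.02 and −0.02. The medians over all genes ran from −0.015 to 0.013 on these 8 arrays.

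The 800 ng/ml arrays also differed among themselves. The median over 13 astrocyte and neural markers, relative to the mean of the 8 arrays, was 0.77 and 0.50 in 800 ng/ml replicates 2 and 3 and between −0.41 and −0.03 on the other arrays. Of the 13, 11 were higher at 800 ng/ml than in untreated cells, as were 54.6% of all genes. Not every marker set replicates 2 and 3 apart, since SOX10 had 5.52, 5.55 and 5.51 at 800 ng/ml. SPARC had 4.18, 6.79 and 6.48 at 800 ng/ml, against 4.05, 4.27 and 4.15 in untreated cells. No collagen was higher in both of these replicates than on all other 7 arrays (0 of 41, against 3.15% of all genes), and COL1A2, COL4A3 and COL4A6 were lower in both (7.32%, against 3.05%). The part of these 2 arrays in the collagen values was not tested beyond leaving each array out in turn.

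Enzymes and chaperones that make collagen showed no called change either. Of 13 hydroxylases and glycosyltransferases, which modify the chains, 10 were higher at 800 ng/ml than in untreated cells, with a median of 0.15. Of 12 folding and export genes 11 were higher, with a median of 0.42. Without untreated replicate 2 these medians were −0.05 and 0.05, with 4 of 13 and 6 of 12 higher. At 200 ng/ml the medians were 0.03 and 0.17 with all arrays and −0.11 and −0.16 without that one. Set against the average of the other arrays, the folding and export list was at −0.80 in untreated replicate 2, the opposite direction to the collagens. Most genes of this list fell in the brightest bin, where all genes were at −0.77 in that array on the same measure. SPARC, counted in that list, had a difference of 1.66 ± 0.52 at 800 ng/ml, or 1.71 ± 0.62 without untreated replicate 2. MIA3, which loads procollagen into transport carriers, had 0.74 ± 0.30 at 800 ng/ml and 0.61 ± 0.30 at 200 ng/ml, but 0.36 ± 0.17 and 0.23 ± 0.17 without untreated replicate 2. TMEM38B, an ion channel of the endoplasmic reticulum, had 0.73 ± 0.34 at 800 ng/ml and 0.27 ± 0.17 without that array. The prolyl isomerase FKBP7 had 0.58 ± 0.28 between 800 and 200 ng/ml.

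Genes that act on collagen outside the cell gave no call. Of 12 processing and cross-linking genes 2 were higher and 10 lower at 800 ng/ml than in untreated cells, with a median of −0.05. Without untreated replicate 2 the split was 6 and 6, with a median of −0.01. In both fits 11 were lower at 800 than at 200 ng/ml, with a median of −0.09. TLL1, a procollagen C-proteinase, had 0.42 ± 0.23 at 200 ng/ml, or 0.41 ± 0.22 without untreated replicate 2. Of 10 collagen receptors 3 were higher and 7 lower at 800 ng/ml, with a median of −0.18, which was 0.08 without untreated replicate 2. The receptor kinase DDR1 had −0.62 ± 0.24 at 200 ng/ml, or −0.37 ± 0.16 without untreated replicate 2, and ITGA10, a collagen-binding integrin chain, had −0.48 ± 0.25 between 800 and 200 ng/ml. None of the collagen-related genes named passed in these comparisons (limma, adjusted p = 0.659 at 800 ng/ml, 0.966 at 200 ng/ml and 0.999 between the doses).

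Of the settings run, weighting the arrays was the only one that called collagens. It called 4.14% of all genes at 800 ng/ml, 11.1% at 200 ng/ml and 0.0339% between the doses. At 800 ng/ml the called collagens were COL6A6, higher by 0.63, and COL4A3, at −0.60. At 200 ng/ml they were COL25A1 at 0.67, COL5A1 at 0.54, COL6A2 at 0.51, COL2A1 at −0.32 and COL4A3 at −0.41, and between the doses there were 0. The weight of untreated replicate 1 was 10.7 against 0.0399 for untreated replicate 2, and the algorithm that sets the weights warned that it had not converged. The comparisons with untreated cells then rested largely on untreated replicate 1, and with weights but without untreated replicate 2 no gene was called.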

How the data were processed

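Total RNA of HepG2 cells was labelled with biotin and hybridised to 1-colour arrays, per the labels. The authors deposited 1 table of log2 values per transcript cluster and array. Its log2 scale was inferred from the values. The submitters' processing notes name R 3.0. How the arrays were normalized and background-corrected is not given in the sources used here. The table held 21448 clusters, of which the platform annotation gave 17709 a gene symbol and 3739 none. The cluster with the highest mean was kept per gene, which left 17687 genes. One limma model (version 3.58.1 under R 4.3.3, lmFit and eBayes) held all 9 arrays, with Benjamini-Hochberg adjustment over all genes, a threshold of 0.05 and two-sided tests. The procedure was tested on simulated data. Values on every array are given for up to 3 collagens of each class with the highest mean signal, for the 5 with the smallest p in each comparison and for SPARC, and 3 genes per comparison are named from the lists of collagen-related genes. COL1A1 and others given by their range fall outside these. The members and lists were chosen with earlier results of these data known. Promoter sequences are RefSeq's, build GRCh38.p14. Precision is limited by having 3 arrays per group. Replicate numbers were not used to pair the samples in the main fit. Deviations from group means correlated at −0.253 to 0.113 for same-numbered arrays and −0.238 to 0.268 for others. These ranges cannot tell whether the samples were paired, and no label says so. Alternatives were other scalings, filters on dim genes, other fits and leaving out each array.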

Additional observations from a re-analysis of the deposited data

How the results depend on the processing

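The count of 0 called collagens held in every comparison when any 1 array was left out, after quantile normalization or median centring, without the dimmest 25% or 50% of genes (which left 28 and 12 collagens), with a trended robust prior, with only the 6 arrays compared and with the clusters of a gene averaged. Averaging cannot alter the collagen values, since each collagen had 1 cluster. With the replicate number as a block the count was 0 too. In this balanced layout the block changes only the spread, so the medians were those of the main fit. They were −0.21, −0.06 and −0.10 over the collagens for 800 ng/ml against untreated, 200 ng/ml against untreated and 800 against 200 ng/ml. Array weights called 2, 5 and 0 collagens in that order, among 732, 1971 and 6 genes, and turned COL25A1 at 200 ng/ml from −0.26 to 0.67. Leaving out single arrays gave 0 to 12 called genes at 800 ng/ml and 0 to 15 between the doses, the higher counts without 800 ng/ml replicate 1, and leaving out untreated replicate 2 with it, a setting chosen after seeing the data, gave 24 and 25, with 0 collagens among them. Why the settings differed was not tested. With weights, the comparisons with untreated cells rested largely on untreated replicate 1, as given above. Of the 26 collagens given in full, 10 changed sign at 800 ng/ml against untreated without untreated replicate 2, and 11 at 200 ng/ml. With the replicate block added to that setting, the split of all 41 at 800 ng/ml was 25 higher and 16 lower, instead of 19 and 22. Signal over background was not available, so what dim signals can show is not known.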
